A study of Mus musculus with 6 samples.

Results

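DEAD-box and DEAH-box RNA helicases were examined in primary murine hepatocytes that overexpressed *Aloxe3*. The members were the protein-coding genes whose GENCODE M21 symbol starts with Ddx or Dhx and a digit, without the RNA sensors *Ddx58* and *Dhx58*, and 51 of the 41388 genes in the deposited table met this rule (36 Ddx and 15 Dhx genes). They were divided by a list of 16 nucleolar helicases and 35 other helicases. All 6 RNA-seq libraries came from C57BL/6J hepatocytes, freed by collagenase and kept overnight in growth medium before they received adenovirus at about 1000000 viral particles per 1000000 cells for 24 h. The virus carried β-galactosidase in the control group (β-gal, replicates 1, 2 and 3) and ALOXE3, a lipoxygenase of the epidermal type, in the other (Aloxe3, replicates 7, 8 and 9; n = 3 per group). The labels do not say which promoter drove the transgenes, or whether the libraries of a group came from separate cultures or mice, so each p-value measures the spread between these libraries, which may be technical.

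RNA helicases of these families use ATP to unwind short RNA duplexes or to strip proteins from RNA. The DEAD-box proteins (Ddx) pry open a duplex locally, whereas the DEAH-box proteins (Dhx) move along a strand, and both are RNA-dependent ATPases. Nearly each step of RNA metabolism has its own members, from the processing of ribosomal RNA in the nucleolus and the remodelling of the spliceosome to mRNA export, translation and decay. Most members are expressed in nearly all tissues, the liver included. The study listed ATPase activity among the most downregulated processes in these libraries, under mitochondrial electron transport, and did not name RNA helicases.

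The families are named for a stretch of 4 amino acids in helicase motif II, which binds the ATP-linked magnesium ion and is written in one-letter code as DEAD or DEAH. The coding sequence of the motif is shown here because it sets the subfamilies apart. Among the 51 members, 28 encode DEAD, 9 encode DEAH and 14 encode another stretch. The last differ from the family names at the third codon, which is valine in 9 members, cysteine in 2 (*Ddx39* and *Ddx39b*), isoleucine in 2 (*Dhx9* and *Dhx36*) and serine in 1 (*Ddx52*). *Ddx11*, a DNA helicase of the XPD type by descent, carries DEAH in spite of its symbol. Of the 16 nucleolar members 11 encode DEAD, 2 encode DEAH and 3 (*Ddx21*, *Ddx50* and *Ddx52*) another stretch. The motif and its flanks follow for the members on which the comparisons turn, 5′ to 3′ on the coding strand from GENCODE M21 transcripts, with the 4 motif codons in capitals.
Ddx49: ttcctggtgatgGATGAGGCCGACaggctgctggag
Ddx31: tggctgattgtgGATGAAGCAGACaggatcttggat
Ddx50: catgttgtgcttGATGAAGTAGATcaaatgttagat
Ddx21: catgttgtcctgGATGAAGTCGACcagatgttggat
Ddx23: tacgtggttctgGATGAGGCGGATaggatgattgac
Dhx16: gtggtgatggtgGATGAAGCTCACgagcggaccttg
Dhx38: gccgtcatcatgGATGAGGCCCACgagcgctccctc
Ddx39: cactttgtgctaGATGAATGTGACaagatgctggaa
Ddx39b: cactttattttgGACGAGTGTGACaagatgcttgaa
Ddx19a: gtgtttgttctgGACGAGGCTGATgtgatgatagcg
Ddx19b: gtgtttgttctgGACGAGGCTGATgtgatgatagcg
Dhx9: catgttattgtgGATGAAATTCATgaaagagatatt
Dhx32: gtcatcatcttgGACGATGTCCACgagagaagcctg

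The windows of *Ddx19a* and *Ddx19b* (chr8:110979074-110979109 and chr8:111011323-111011358, minus strand, GRCm38) are identical, and 831 of the 2498 stretches of 50 bases in the *Ddx19a* transcripts also occur in those of *Ddx19b*. *Ddx21* (chr10:62591869-62591904, minus strand) and *Ddx50* (chr10:62640499-62640534, minus strand) are neighbours that share the valine codon position but not its spelling. *Ddx39* (chr8:83721098-83721133, plus strand) and *Ddx39b* (chr17:35247078-35247113, plus strand) share the cysteine. *Dhx32* (chr7:133742702-133742737, minus strand) is shown because its second codon differs as well. All of these windows are coding exon sequence, and those of *Ddx49* and *Ddx31* run across an exon junction.

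The libraries held between 25521908 and 32431318 reads, as derived from the whole-read steps of the RPKM values (reads per kilobase of exon, scaled to library size), so that a single read over 1 kb of exon came to 0.0308 to 0.0392 RPKM. *Aloxe3* itself, the check of the labels, was at 1.95 ± 0.18 RPKM in β-gal and 48.1 ± 7.3 RPKM in Aloxe3 libraries (SD, n = 3), a log2 fold change of 4.05 with an SE of 0.10 (limma, adjusted p = 4.74e-06). Aloxe3 replicate 9 stood apart. The chi-square per degree of freedom between replicates, where 1 stands for counting error alone, was 3.47 to 5.46 for the pairs without it and 8.99 and 9.82 for the pairs with it. Of the hepatocyte markers *Alb* was at 4360 to 4550 RPKM and *Hnf4a* at 25.4 to 29.3 RPKM, but *Tat*, *Cps1*, *Cyp2e1* and *Asgr1* were between 0.193 and 2.86 RPKM, and the bile duct markers *Spp1* (1430 to 1640 RPKM), *Sox9* (38.3 to 49.3 RPKM) and *Krt19* (32.9 to 51.0 RPKM) were high in both groups. The bile duct markers *Krt7* (0.0944 to 0.163 RPKM) and *Epcam* (0.398 to 0.456 RPKM in β-gal and 0.154 to 0.334 RPKM in Aloxe3 libraries) were low. *Clec4f*, *Timd4* and *Vsig4* of Kupffer cells stayed at or under 0.102 RPKM, while *Adgre1* was at 1.47 to 1.99 RPKM and *Csf1r* at 1.11 to 1.68 RPKM. *Lrat* of stellate cells was listed at 0 in each library, with *Col1a1* at 2.09 to 2.53 RPKM and *Acta2* at 0.794 to 1.06 RPKM. The 7 endothelial markers, led by *Cdh5* (14.2 to 16.6 RPKM), summed to 30.6 to 34.8 RPKM in β-gal and 30.1 to 35.2 RPKM in Aloxe3 libraries. The summed RPKM of the 8 Kupffer cell markers was 151 to 155 in β-gal and 133 to 146 in Aloxe3 libraries, nearly all of it *Cd68*, and of the 5 tested markers 1 was lower and none higher at an unadjusted p under 0.05 by limma, a criterion at which 5.42% of all tested genes were lower and 7.31% higher. The summed RPKM of the 8 hepatocyte markers was 4900 to 4940 in β-gal and 4730 to 4880 in Aloxe3 libraries, nearly all of it *Alb*. Of the 7 tested 3 lay below and 4 above 0, and 2 were lower (28.6%) and 1 higher at that unadjusted p. The one that passed an adjusted p of 0.05 was *Ttr*, which was lower with 119 to 131 against 99.4 to 101 RPKM (log2 fold change −0.30, limma adjusted p = 0.0448). *Apoa1* was at 241 to 246 against 218 to 235 RPKM, *Cps1* at 0.915 to 1.05 against 1.29 to 1.64 RPKM and *Tat* at 0.193 to 0.346 against 0.438 to 0.661 RPKM. The part of either list in the results was not tested. As the libraries were made from bulk RNA, fewer cells of a type and less RNA per cell cannot be told apart.

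Of the 51 helicase genes, 48 had a mean of at least 0.5 RPKM and were tested. Their mean levels ran from 0.663 RPKM (*Ddx60*) to 99.1 RPKM (*Ddx17*) with a median of 15.3 RPKM, and the median of all 12693 tested genes was 6.85 RPKM. A level over 10 RPKM was found for 36 of them and over 50 RPKM for 8. The nucleolar members had a median level of 14.4 RPKM and the other tested members 19.3 RPKM. The 3 untested members, *Ddx4*, *Ddx25* and *Ddx43*, are helicases of germ cells, and no library held more than 8 reads of any of them.

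**Figure D1:**
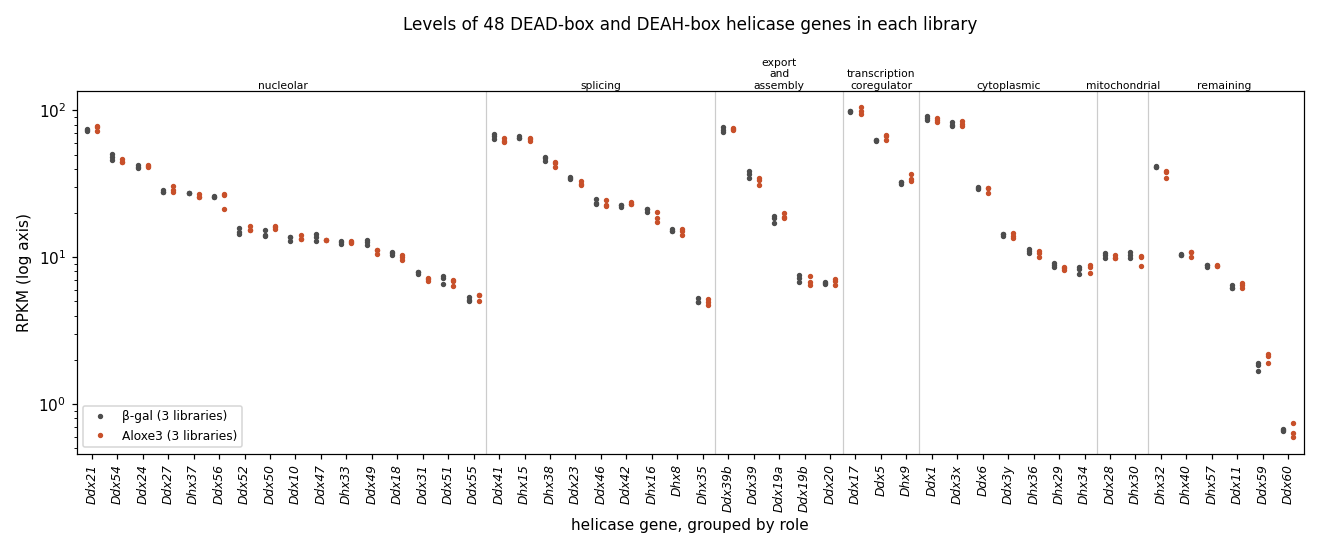
Levels of the 48 tested helicase genes in RPKM on a log axis, grouped by role and ordered by mean level within a role. Each point is 1 library (3 β-gal, 3 Aloxe3). The genes span from 0.663 to 99.1 RPKM, and the points of both groups lie close together for each gene.

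The highest member was *Ddx17* (p72), a coregulator of transcription and splicing, with 98.2, 98.9 and 99.6 RPKM in β-gal replicates 1, 2 and 3 and 98.8, 105 and 94.5 RPKM in Aloxe3 replicates 7, 8 and 9. *Ddx1*, a subunit of the tRNA ligase complex, was at 90.9, 89.3 and 86.6 RPKM against 88.3, 85.5 and 82.8 RPKM. *Ddx3x*, which helps the translation of structured mRNAs, was at 82.9, 79.6 and 78.3 RPKM against 78.8, 80.4 and 84.9 RPKM. In all 3 genes the groups overlapped. The lowest tested member, the interferon-inducible *Ddx60*, was at 0.671, 0.667 and 0.659 RPKM against 0.639, 0.745 and 0.595 RPKM, and *Ddx59* was at 1.84, 1.91 and 1.68 RPKM against 1.90, 2.18 and 2.13 RPKM. Aloxe3 replicate 7 lay below the highest β-gal library for *Ddx59*, so the groups overlapped there too.

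No helicase gene passed an adjusted p of 0.05 in the comparison of Aloxe3 with β-gal (limma on log2(RPKM + 1), Benjamini-Hochberg adjustment over all tested genes), nor with voom on the derived reads. Of the 12693 tested genes 50 did, which is 0.394%, and 174 did with voom. When any 1 of the 6 libraries was left out, 6 to 19 did by limma on log2(RPKM + 1). The smallest adjusted p of a member was 0.18. The largest absolute log2 fold change among the members was 0.19, 10 of them exceeded 0.1, and their median SE was 0.0434. The 95% intervals of all 48 lay between −0.29 and 0.27 on the log2(RPKM + 1) scale, where the pseudocount shrinks the change of low genes such as *Ddx60*.

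At an unadjusted p under 0.05 by limma, 9 members stood out, 7 of them lower and 2 higher in Aloxe3 libraries. The 7 lower ones are 14.6% of the tested members, and 5.42% of all tested genes were lower by the same criterion. For higher genes the background was 7.31%. With the filter set at a mean of 5 RPKM, 7 of 46 members were lower, or 15.2% against 7.74% of all genes tested. The background for higher genes was then 5.89%. The count of members at that p, 9 with all libraries, was 5 without β-gal replicate 2, without Aloxe3 replicate 8 or without Aloxe3 replicate 9. Without the last, 4 members were lower, or 8.33% against 4.75% of all tested genes. In all 7 lower members Aloxe3 replicate 9 was the lowest of the 6 libraries. It was the lowest library for 25 of the 48 members (52.1%) and for 30.0% of all tested genes, and its part in these counts beyond leaving it out was not tested.

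Counted by library, all 3 Aloxe3 values lay below all 3 β-gal values in 6 members (*Ddx49*, *Ddx31*, *Dhx32*, *Ddx23*, *Dhx38* and *Dhx37*) and above them in 3 (*Ddx50*, *Dhx9* and *Ddx42*). Among all tested genes 8.71% lay below and 11.2% above in this way. The median log2 fold change of the 48 members was −0.03 and that of all tested genes 0.005. With the filter at a mean of 5 RPKM, the median of all genes was −0.01. Below 0 were 28 members and above 0 were 20.

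**Figure D2:**
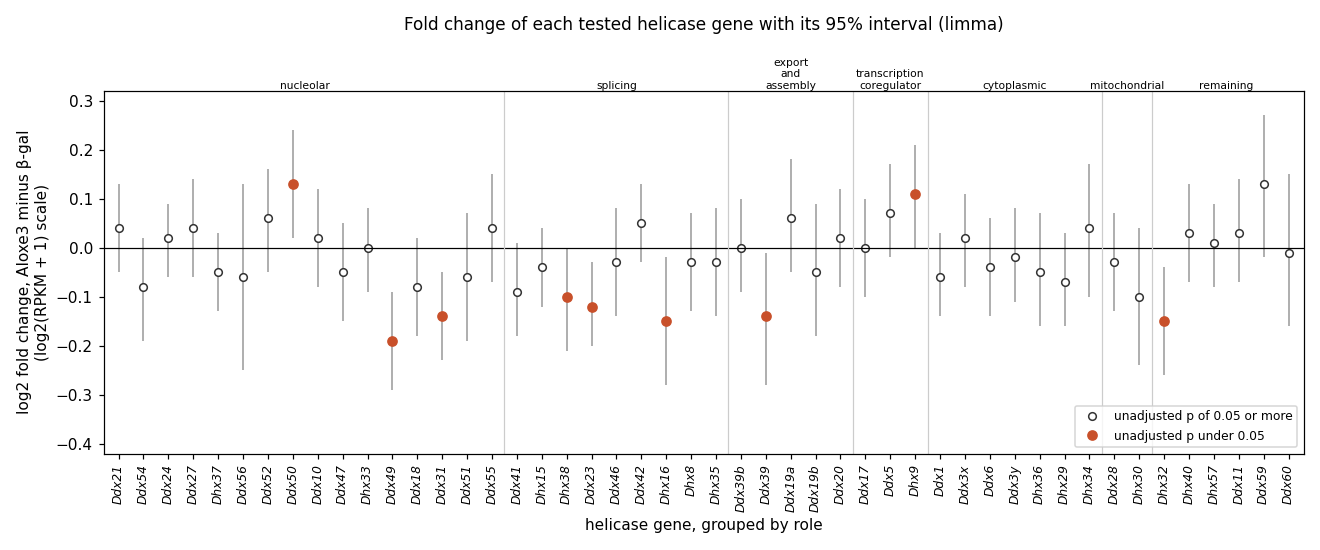
Log2 fold change of Aloxe3 against β-gal on the log2(RPKM + 1) scale for the 48 tested helicase genes, grouped by role, with 95% intervals from limma. The filled points are the 9 genes with an unadjusted p under 0.05, 7 below and 2 above 0, and none of them passed an adjusted p of 0.05.

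The 16 nucleolar helicases act in ribosome production, where they release small nucleolar RNAs from the precursor of ribosomal RNA and remodel the nascent subunits. All 16 were tested, with mean levels from 5.26 to 74.9 RPKM. Below 0 were 9 of them and above 0 were 7, with a median log2 fold change of −0.025. At an unadjusted p under 0.05, 2 were lower (*Ddx49* and *Ddx31*, 12.5% against 5.42% of all tested genes) and 1 was higher (*Ddx50*, against 7.31%).

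*Ddx49* (chr8:70292866-70302489, minus strand), a nucleolar helicase needed for pre-ribosomal RNA, was at 12.7, 13.0 and 12.2 RPKM in β-gal and 11.2, 11.2 and 10.5 RPKM in Aloxe3 libraries. The groups did not overlap. Its log2 fold change of −0.19 (SE 0.043) had an unadjusted p of 0.00277 and an adjusted p of 0.18 by limma, and over the alternatives the latter was 0.0964 to 0.513. Of its 2928 exon bases 874 overlap exons of *Homer3* on the other strand, and whether the counting used the strand is not stated. *Homer3* was at 14.7 ± 0.35 RPKM in β-gal and 14.1 ± 0.74 RPKM in Aloxe3 libraries (SD, n = 3), and its part in the *Ddx49* values was not tested.

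*Ddx31* (chr2:28840406-28905571, plus strand), a helicase of the large ribosomal subunit, was at 7.92, 7.97 and 7.72 RPKM in β-gal and 7.14, 7.19 and 6.87 RPKM in Aloxe3 libraries. Again no Aloxe3 library reached the lowest β-gal library. The log2 fold change was −0.14 (SE 0.039, limma adjusted p = 0.254, range over the alternatives 0.178 to 0.577). *Ddx50* (chr10:62615895-62651218, minus strand), the nucleolar helicase Gu-beta, went the other way, with 14.2, 15.4 and 13.9 RPKM against 16.1, 15.5 and 16.4 RPKM. The lowest Aloxe3 library lay just above the highest β-gal library, and the log2 fold change was 0.13 (SE 0.047, limma adjusted p = 0.319, range 0.267 to 0.563). Of the 2486 stretches of 50 bases in its transcripts 430 also occur in the transcripts of *Gm8228*, so unique reads could not cover them.

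*Ddx21*, its neighbour and closest relative, which couples RNA polymerase I to the processing of ribosomal RNA, was the highest of the nucleolar members. It was at 72.9, 74.7 and 73.5 RPKM in β-gal and 72.9, 76.5 and 78.8 RPKM in Aloxe3 libraries, with overlapping groups and a log2 fold change of 0.04 (SE 0.039). *Dhx37*, which frees U3 small nucleolar RNA from the small subunit precursor, was close to 27.2 RPKM in each β-gal library and at 25.9, 27.0 and 25.9 RPKM in Aloxe3 libraries. The groups did not overlap, but the log2 fold change was only −0.05 (SE 0.033). *Ddx54*, at 47.9 ± 2.3 against 45.2 ± 1.3 RPKM, had a log2 fold change of −0.08 (SE 0.044). *Ddx56*, a factor of the large subunit, had the largest SE of the 48 tested members, with 27.0, 26.6 and 21.4 RPKM in Aloxe3 replicates 7, 8 and 9 and 25.8 to 26.2 RPKM in β-gal libraries. Replicate 9 was far below the other 5 libraries, and the log2 fold change was −0.06 (SE 0.081). With 1 library left out it was −0.11 to 0.05.

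The log2 fold changes of the other 9 nucleolar members (*Ddx10*, *Ddx18*, *Ddx24*, *Ddx27*, *Ddx47*, *Ddx51*, *Ddx52*, *Ddx55*, *Dhx33*) lay between −0.08 and 0.06, none with an unadjusted p under 0.05. *Ddx18*, the counterpart of yeast Has1, was at 10.7 ± 0.21 against 10.0 ± 0.43 RPKM with a log2 fold change of −0.08 (SE 0.042). Most of its transcript, 1386 of 2209 stretches of 50 bases, recurs in other genes and mainly in *Gm16433*, so its level is uncertain. *Dhx33*, which takes part in RNA polymerase I transcription, was at 12.6 ± 0.26 against 12.6 ± 0.22 RPKM.

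Nucleolar and other members were then compared, which the design of the member list calls for. The median log2 fold change was −0.025 over the 16 nucleolar and −0.03 over the 32 other members, a difference of 0.006. Library by library, the nucleolar median relative to the β-gal mean was −0.008, 0.018 and −0.005 in β-gal and −0.013, −0.004 and −0.037 in Aloxe3 libraries. That of the other members was 0.012, 0.002 and −0.016 against −0.003, −0.017 and −0.062. Aloxe3 replicate 9 had the lowest value in both classes, and without it the medians were −0.007 and −0.006. The nucleolar median minus the other median was −0.02, 0.016 and 0.011 in β-gal and −0.009, 0.012 and 0.026 in Aloxe3 libraries, so the groups overlapped. Members are not replicates, so no p is given.

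**Figure D3:**
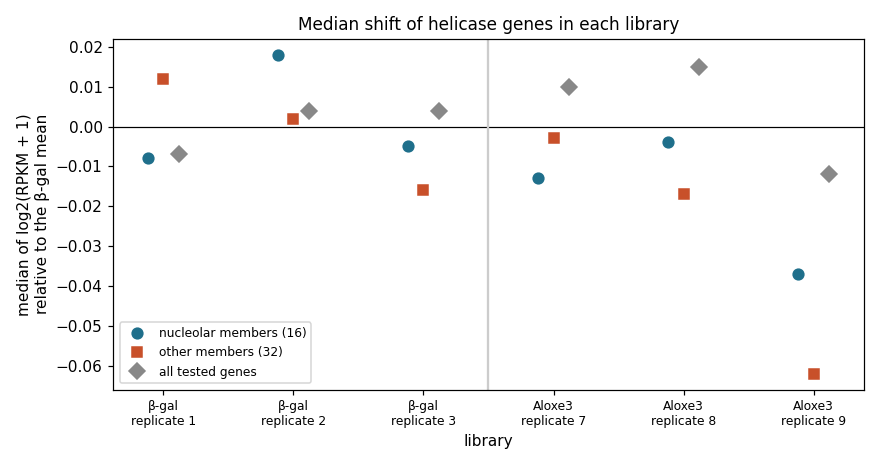
Median of log2(RPKM + 1) relative to the β-gal mean in each of the 6 libraries for the 16 nucleolar members, the 32 other tested members and all 12693 tested genes. Aloxe3 replicate 9 holds the lowest point of each class, −0.037, −0.062 and −0.012, and the other libraries lie between −0.017 and 0.018.

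Spliceosomal helicases drive the exchange of small nuclear RNAs, the catalytic steps and the release of the spliced mRNA. Of the 9 in the list 8 had a log2 fold change below 0, with a median of −0.038, and 3 were lower at an unadjusted p under 0.05 (*Ddx23*, *Dhx16* and *Dhx38*), where 5.42% of all tested genes were. The summed level of the 9 was 298 to 304 RPKM in β-gal and 284 to 290 RPKM in Aloxe3 libraries. None passed an adjusted p of 0.05.

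*Ddx23*, the counterpart of yeast Prp28, which lets U6 replace U1 at the 5′ splice site, was at 34.7, 34.3 and 35.3 RPKM against 33.3, 31.6 and 31.1 RPKM. The groups did not overlap, and the log2 fold change was −0.12 (SE 0.038, limma adjusted p = 0.294, range over the alternatives 0.201 to 0.575). *Dhx16*, the counterpart of Prp2, which activates the spliceosome for its first step, was at 20.3, 21.4 and 21.3 RPKM against 20.4, 18.6 and 17.5 RPKM. Aloxe3 replicate 7 lay within the β-gal range, and the log2 fold change was −0.15 (SE 0.056, limma adjusted p = 0.333, range 0.187 to 0.655). *Dhx38*, the counterpart of Prp16 of the second step, was at 46.6 ± 1.5 against 43.3 ± 1.8 RPKM (SD, n = 3), a log2 fold change of −0.10 (SE 0.044, limma adjusted p = 0.388). Its groups were narrowly apart, with 44.9 RPKM as the lowest β-gal and 44.8 RPKM as the highest Aloxe3 value.

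The highest spliceosomal members were *Ddx41* and *Dhx15*, the latter the counterpart of Prp43, which takes the spliceosome apart. *Ddx41* was at 66.8 ± 2.6 against 62.8 ± 1.7 RPKM (log2 fold change −0.09, SE 0.041) and *Dhx15* at 65.4 ± 1.4 against 63.7 ± 1.3 RPKM (−0.04, SE 0.034). *Ddx42*, which works with the U2 particle, was the only member of the 9 above 0, at 22.4 ± 0.29 against 23.3 ± 0.44 RPKM (0.05, SE 0.034). *Ddx46*, *Dhx8* and *Dhx35* each had a log2 fold change of −0.03, with SEs of 0.047, 0.042 and 0.047.

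Among the 5 helicases of mRNA export and particle assembly, *Ddx39* was lower at an unadjusted p under 0.05 (background 5.42%). It was at 38.8, 36.8 and 34.5 RPKM in β-gal and 34.7, 33.8 and 30.9 RPKM in Aloxe3 libraries. The groups overlapped by a small margin, since Aloxe3 replicate 7 exceeded β-gal replicate 3, and the log2 fold change was −0.14 (SE 0.057, limma adjusted p = 0.367, range over the alternatives 0.211 to 0.663). Of its 5155 exon bases 895 overlap *Adgre5* on the other strand, which was at 17.5 ± 0.66 against 16.6 ± 0.83 RPKM. *Ddx39b* (UAP56), its paralog in mRNA export, was at 77.4, 74.0 and 71.2 RPKM against 74.2, 73.6 and 75.3 RPKM, with a log2 fold change of 0.00 (SE 0.039). *Ddx20* (Gemin3), of the SMN complex that assembles small nuclear particles, was at 6.69 ± 0.12 against 6.82 ± 0.29 RPKM.

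The transcription coregulators *Ddx5*, *Ddx17* and *Dhx9* had a median log2 fold change of 0.075, and that of *Ddx17* was 0.00 (SE 0.043). *Dhx9* (RNA helicase A) was at 32.3, 32.5 and 31.4 RPKM in β-gal and 33.2, 36.8 and 34.1 RPKM in Aloxe3 libraries, a log2 fold change of 0.11 (SE 0.045, limma adjusted p = 0.373, range over the alternatives 0.253 to 0.642). No Aloxe3 library was as low as any β-gal library. *Ddx5* (p68) was at 63.1, 62.4 and 61.6 RPKM against 62.7, 67.7 and 66.9 RPKM. Aloxe3 replicate 7 lay within the β-gal range, and the log2 fold change was 0.07 (SE 0.039). Of the 3510 stretches of 50 bases in the *Ddx5* transcripts 798 recur in other genes, nearly all in *Gm12183*.

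**Figure D4:**
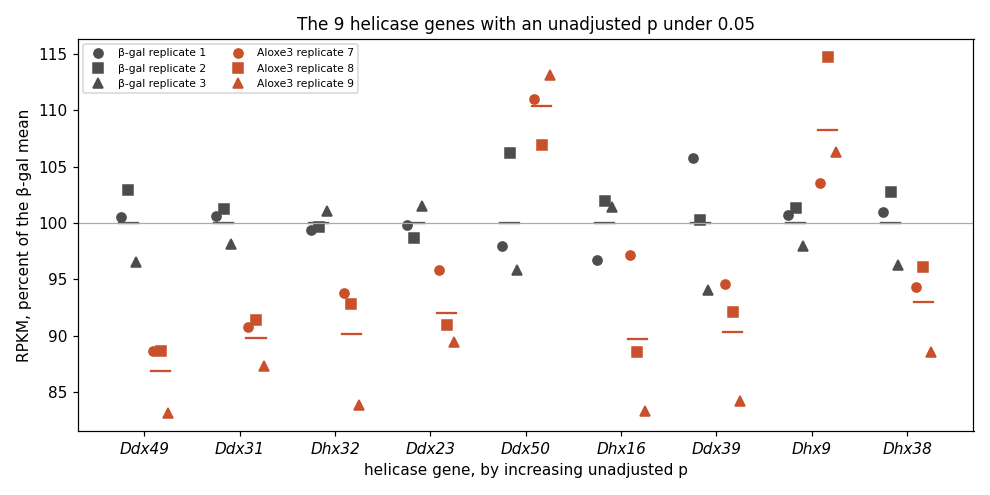
RPKM in each library as percent of the gene's β-gal mean for the 9 helicase genes with an unadjusted p under 0.05, ordered by that p, with bars at the group means and a marker shape for each replicate. Aloxe3 replicate 9 (triangle) is the lowest library in all 7 genes that lie below the β-gal mean, and *Dhx16* and *Ddx39* have overlapping groups.

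None of the 7 cytoplasmic helicases had an unadjusted p under 0.05, a count too small to tell from the background of 5.42% lower and 7.31% higher. Their median log2 fold change was −0.036. Apart from *Ddx1* and *Ddx3x*, *Ddx6*, which acts in mRNA decay and P-bodies, was highest at 29.7 ± 0.58 against 29.0 ± 1.4 RPKM (log2 fold change −0.04, SE 0.043). *Dhx29*, which helps ribosomes scan structured leaders, was at 8.88 ± 0.29 against 8.44 ± 0.21 RPKM (−0.07, SE 0.041). The log2 fold change of *Dhx36*, which unwinds G-quadruplexes, was −0.05 (SE 0.049), while *Dhx34*, of nonsense-mediated decay, had one of 0.04 (SE 0.059). The mitochondrial *Ddx28* and *Dhx30*, both of which take part in assembling the mitochondrial ribosome, were at 10.3 ± 0.47 against 10.0 ± 0.19 RPKM (−0.03, SE 0.043) and 10.4 ± 0.44 against 9.65 ± 0.79 RPKM (−0.10, SE 0.062).

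Among the 6 remaining members *Dhx32* was lower at an unadjusted p under 0.05 (background 5.42%). It was at 40.9, 41.0 and 41.6 RPKM in β-gal and 38.6, 38.2 and 34.5 RPKM in Aloxe3 libraries. The groups did not overlap, replicate 9 was far below the rest, and the log2 fold change was −0.15 (SE 0.047, limma adjusted p = 0.291, range over the alternatives 0.147 to 0.582). *Bccip* overlaps 204 of its 4172 exon bases on the other strand and was at 33.1 ± 1.1 against 31.3 ± 0.95 RPKM. *Ddx59* had a log2 fold change of 0.13 (SE 0.062, unadjusted p = 0.0754 by limma), and those of *Ddx11*, *Ddx60*, *Dhx40* and *Dhx57* lay between −0.01 and 0.03.

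Ratios within a library were formed for 5 pairs of paralogs, since they do not depend on the scaling of the library. *Ddx39b* over *Ddx39* was 2.00, 2.01 and 2.06 in β-gal and 2.14, 2.18 and 2.44 in Aloxe3 libraries, and the groups did not overlap (two-sided p = 0.1 by an exact permutation test, where 3 against 3 can give no smaller one, and 0.333 adjusted over the 5 pairs). *Ddx21* over *Ddx50* was 5.13, 4.85 and 5.28 against 4.53, 4.93 and 4.81 (exact p = 0.2, adjusted 0.333). *Ddx17* over *Ddx5* was 1.56, 1.58 and 1.62 against 1.58, 1.55 and 1.41 (exact p = 0.2, adjusted 0.333). Both of these overlapped between the groups.

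*Ddx19a* and *Ddx19b*, which release mRNA at the nuclear pore, were at 19.2, 18.5 and 17.2 against 18.5, 18.9 and 20.1 RPKM and at 7.52, 7.17 and 6.81 against 6.77, 7.47 and 6.47 RPKM. Their ratio was 2.55, 2.58 and 2.53 against 2.74, 2.53 and 3.11 (exact p = 0.4, adjusted 0.5). Unique reads could not cover the stretches that they share, so their levels and their ratio are uncertain. *Ddx3y*, the Y-linked paralog of *Ddx3x*, was at 14.3, 14.5 and 13.9 against 14.7, 14.0 and 13.5 RPKM, and its ratio to *Ddx3x* was 0.173, 0.182 and 0.178 against 0.187, 0.174 and 0.159 (exact p = 0.8, adjusted 0.8). Only 2 stretches of 50 bases are common to both. The labels give no sex, and *Ddx3y* was expressed in each library, as were *Kdm5d*, *Uty* and *Eif2s3y* of the same chromosome.

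**Figure D5:**
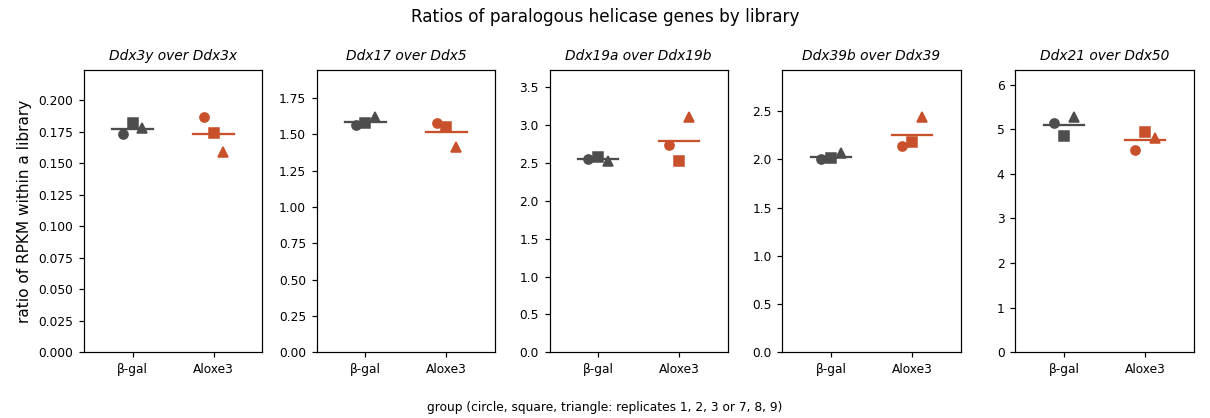
Ratio of RPKM within each library for 5 pairs of paralogous helicase genes, with axes from 0, a marker for each replicate and a bar at each group mean. The ratio of *Ddx39b* to *Ddx39* is 2.00 to 2.06 in β-gal and 2.14 to 2.44 in Aloxe3 libraries, and the other pairs overlap.

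The genes that work with these helicases were counted from lists. Of 72 ribosome biogenesis partners, 44 lay below and 28 above 0, 11 were lower (15.3%, against 5.42% of all tested genes) and 2 higher (background 7.31%) at an unadjusted p under 0.05, and none passed an adjusted p of 0.05, with a median log2 fold change of −0.022. Without Aloxe3 replicate 9, an alternative chosen after seeing the data, 8 were lower (11.1%, against 4.75% of all tested genes) and the median was −0.019. *Emg1*, a methyltransferase of 18S ribosomal RNA, was at 48.2 ± 0.4 against 42.7 ± 1.6 RPKM (log2 fold change −0.17, SE 0.037, limma adjusted p = 0.155), and *Wdr36*, of the small subunit processome, at 23.1 ± 0.21 against 20.7 ± 0.82 RPKM (−0.15, SE 0.039, adjusted p = 0.24). Of 42 spliceosome partners 2 were lower (4.76%) and 3 higher at that p, close to the background, with a median of −0.002. Among them *Snrpg*, an Sm ring protein, was at 17.6 ± 0.81 against 14.7 ± 0.9 RPKM (−0.25, SE 0.054, limma adjusted p = 0.161) and *Prpf3*, of the tri-snRNP, at 8.38 ± 0.16 against 9.23 ± 0.26 RPKM (0.13, SE 0.039, adjusted p = 0.286).

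Of 21 direct cofactors of the helicases 20 were tested, and 1 was lower and 1 higher at an unadjusted p under 0.05, a share (5.0% each way) no larger than the background of 5.42% and 7.31%. Their median was 0.03. *Rtcb*, the ligase that shares a complex with *Ddx1*, was at 67.6 ± 1.8 against 60.0 ± 3.7 RPKM (−0.17, SE 0.050, limma adjusted p = 0.269), and *Eif4enif1*, which binds *Ddx6* in P-bodies, at 13.0 ± 0.5 against 14.2 ± 0.15 RPKM (0.12, SE 0.040, adjusted p = 0.313). Among 21 RNA helicases of other names 19 were tested and none had an unadjusted p under 0.05 (background 5.42% lower and 7.31% higher). The smallest p-values there were those of *Helz* (0.11, SE 0.052) and *Mtrex* (0.07, SE 0.037), the helicase of the nuclear exosome. *Ddx58* and *Dhx58*, kept out of the member list, were at 15.0 ± 0.36 against 15.0 ± 0.41 RPKM and 10.1 ± 0.63 against 9.5 ± 0.98 RPKM.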

How the data were processed

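Poly-A selected RNA was primed with random hexamers and sequenced as single reads of 50 bases on a HiSeq-3000 in 1 run. Alignment by the authors used STAR 2.0.4b (GRCm38.p2 in the submitters' processing notes). They counted reads with a single alignment to a single gene with featureCounts 1.4.5 and deposited RPKM values, 1 column per library. The step from counts to RPKM and the strand setting are not given in the sources used here. No further scaling was applied to the deposited RPKM. Symbols, coordinates, exon lengths and transcript sequences came from GENCODE M21, in which 40340 of 41388 gene identifiers matched. Library size was derived from the whole-read steps of RPKM values, and reads per gene with the exon length for 25 of the 51 members and otherwise with the shortest length that turns all values into whole numbers, which leaves a common factor open.

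The 12693 genes whose mean over the libraries was 0.5 RPKM or more were tested with limma 3.58.1 under R 4.3.3. Its lmFit and eBayes functions (with trend, two-sided) were run on log2(RPKM + 1), with Benjamini-Hochberg adjustment over all tested genes. Groups were taken from the labels, and no batch was fitted. The fit was tested on simulated data. Motif II was located in the coding sequence with biopython 1.88, and transcripts were searched for shared stretches of 50 bases. Ratios were compared with exact permutation tests (scipy 1.17.1). Scripts ran in Python 3.11.15 with pandas 2.3.3, numpy 2.4.6 and matplotlib 3.10.9. The members and lists were chosen with earlier results of these data known. Values in each library are given for the 8 members with the smallest unadjusted p, the 4 highest and 2 lowest tested members and 5 pairs of paralogs. From the lists of partners, cofactors and other RNA helicases the 2 genes with the smallest unadjusted p are named, and further genes were chosen after their values were seen. Alternatives were a pseudocount of 0.1, no filter or one at a mean of 5 RPKM, quantile normalization, a rescaling of libraries to 1 median, eBayes without trend, voom on the derived reads, a wider nucleolar list with *Ddx5*, *Ddx17* and *Dhx15*, and each library left out in turn.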

Additional observations from a re-analysis of the deposited data

How the results depend on the processing

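No helicase gene passed an adjusted p of 0.05 under any alternative (limma, also by voom). The number of all tested genes that passed was 50, 7 with no filter on low values, 174 with voom on the derived reads and 6 to 19 with 1 library left out. The number of members at an unadjusted p under 0.05 was 9, and 5 to 9 with 1 library left out. The median log2 fold change of the nucleolar members was −0.025, and −0.024 to −0.007 with 1 library left out. That of the other members was −0.03, and −0.031 to −0.006. The difference of the medians was 0.006, and −0.013 to 0.012. With *Ddx5*, *Ddx17* and *Dhx15* counted as nucleolar, the nucleolar median was −0.002 and the difference 0.028. The cause of these shifts was not tested. After rescaling to the same median 9 members were lower at an unadjusted p under 0.05 (18.8%, against 8.22% of all genes tested). The median log2 fold change was then −0.038 for the nucleolar members, −0.043 for the other members and −0.006 for all tested genes. With quantile normalization 6 members were lower at that unadjusted p (12.5%, against 5.82% of all genes tested). With eBayes without trend 5 were (10.4%, against 4.53%). Of 245 alternative log2 fold changes of the 19 members chosen by p, level or pairing, 10 in 5 members had the other sign. None of these 10 was in the 8 members with the smallest p, and their smallest adjusted p was 0.766 (limma). Outside the 19, leaving out 1 library turned the sign of further members, such as *Ddx56* (−0.11 to 0.05) and *Dhx34* (−0.01 to 0.08). No paired analysis was possible because the β-gal libraries carry the numbers 1, 2 and 3 and the Aloxe3 libraries 7, 8 and 9, so that no number is shared. RPKM values keep no strand, and 3 libraries per group limit the precision to the intervals given.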
